A study of Mus musculus with 4 samples.

Results

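The thrombospondins and other matricellular genes were followed in RNA from C3H10T1/2 cells with and without 5-AZA. The members were 10 genes, namely Thbs1, Thbs2, Thbs3, Thbs4, Sparc, Tnc, Postn, Ctgf, Cyr61 and Ptn. They were chosen by gene name, and every mRNA transcript listed under those names was taken and summed per gene. This gave 24 of the 75959 transcripts and 10 of the 21878 genes in the table. C3H10T1/2 is a mouse embryo fibroblast line with the properties of a mesenchymal stem cell, and the labels name the source as MSC. Of the 4 samples, 2 were untreated (replicates 1 and 2) and 2 were exposed to 20 μM 5-AZA for 72 h and then kept in fresh medium for 21 days (replicates 101 and 102). 5-AZA stands for 5-azacytidine, which blocks DNA methyltransferases once it is built into DNA. The labels give no culture time for the untreated cells, so 5-AZA and the time in culture cannot be told apart. All samples came from 1 cell line, and nothing in the labels says that the replicates were separate cultures, so the p-values measure only the spread between these samples.

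Matricellular proteins are secreted into the extracellular matrix, where they act mainly as signals to cells and less as structural parts. They bind cell-surface receptors such as integrins, CD36, CD47 and syndecans, and they hold or release growth factors such as TGF-beta. Their genes are expressed strongly in development, wound repair and muscle or tendon remodelling. Thrombospondins 1 and 2 are trimers that bind CD36 and CD47 and inhibit the growth of blood vessels, whereas thrombospondins 3 and 4 belong to a pentameric branch of the family. SPARC is a collagen-binding glycoprotein, tenascin C and periostin are large adhesion-modulating proteins, CTGF and CYR61 are CCN proteins, and pleiotrophin is a heparin-binding growth factor.

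The mRNA values were FPKM (fragments scaled to transcript length and to the mapped fragments of the sample), which are corrected for transcript length and allow levels of different genes to be compared. The FPKM files do not carry read counts. The steps of the circRNA values corresponded to 92903364 to 93920706 reads per sample. Among the mesenchymal markers, Vim was at 2268 and 2406 FPKM in the untreated samples, and Prrx1 was at 127 and 111 FPKM. The lowest of these markers in the untreated samples were Thy1, at 0.578 and 0.785 FPKM, and Eng, at 1.72 and 1.52 FPKM. Markers of other cell types differed between the groups. The summed level of 10 skeletal muscle markers was 1.30 to 1.63 FPKM in the untreated samples and 814 to 1248 FPKM in the 5-AZA samples, and all 10 were called higher. The summed level of 8 adipocyte markers was 30.1 to 45.9 FPKM in the untreated samples and 1130.3 to 1544 FPKM in the 5-AZA samples, with 7 of 8 called higher. The cardiomyocyte markers Nppa, Nppb, Myl7, Tbx5 and Hand2 were listed at 0 in every sample. The 8 cardiomyocyte markers summed to 0.321 and 0.370 FPKM untreated and to 1.62 and 3.51 FPKM after 5-AZA. Myh6 and Tnni3 were called higher, at log2 fold changes of 2.16 and 2.41, and Nkx2-5 was too low to test. In such bulk samples, fewer cells of a type and less RNA per cell cannot be told apart. The part of these other cell types in the results given here was not tested.

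Levels of the members ranged, as untreated means, from 0.0047 FPKM for Thbs4 to 3197 FPKM for Ptn. Together they took 1.32% and 1.45% of the summed mRNA FPKM in the untreated samples and 1.14% and 1.12% in the 5-AZA samples. In the untreated samples the order of the mean levels was Ptn, Postn, Sparc, Cyr61, Tnc, Thbs2, Ctgf, Thbs1, Thbs3 and Thbs4, and no pair of neighbours in this order overlapped. In the 5-AZA samples the order was Ptn, Postn, Sparc, Cyr61, Thbs2, Thbs1, Tnc, Ctgf, Thbs3 and Thbs4. There the values of Postn and Sparc overlapped, as did those of Thbs1 and Tnc, so these neighbours could not be ordered. Thbs2 and Thbs1 thus stood below Tnc in the untreated samples, and Thbs2 stood above it in the 5-AZA samples.

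**Figure D1:**
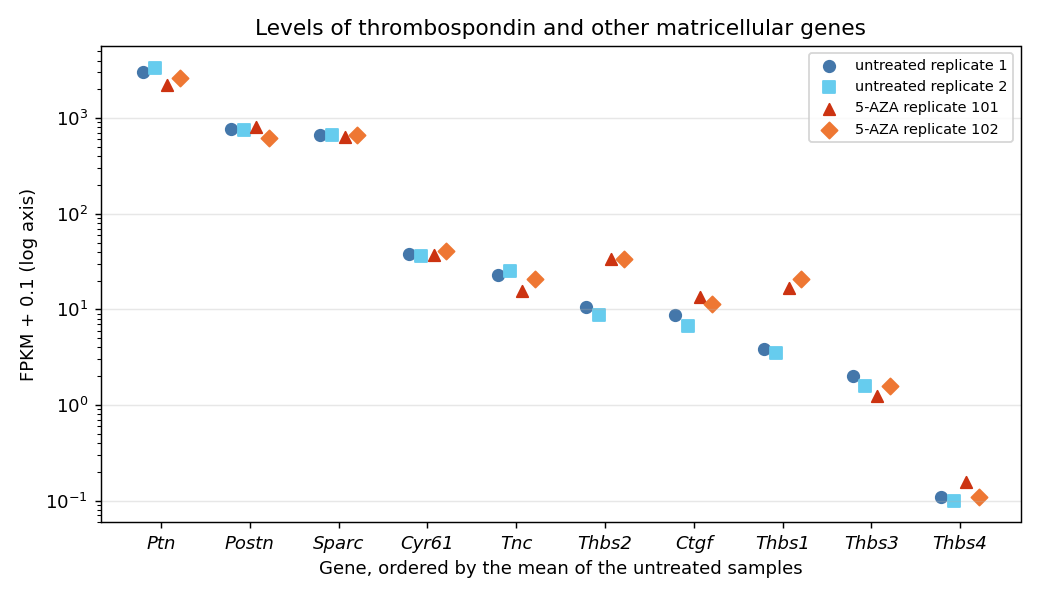
Level of each of the 10 genes in each sample, as FPKM + 0.1 on a log axis, with the genes ordered along the other axis by their untreated mean. Thbs1 rises from 3.38 to 3.79 FPKM in the untreated samples to 16.5 to 20.8 FPKM in the 5-AZA samples, while Sparc stays between 631 and 673 FPKM in all 4.

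The change with 5-AZA was tested with limma on log2(FPKM + 0.1), and a gene was called when the Benjamini-Hochberg adjusted p was below 0.05 and the change exceeded 2-fold. Of the 10 genes, 9 reached the minimum mean of 0.1 FPKM and were tested. Thbs1 and Thbs2 were called higher, which is 2 of 9 members, against 13.1% of the 13199 genes tested. In either direction, 14.4% of all genes were called. No member was called lower, against 1.32% of all genes, although 2 members had an unadjusted p below 0.05 in that direction. The median log2 fold change was -0.03 over the 9 members and 0.05 over all genes tested. The values of the groups did not overlap for 5 of the 9 members, against 62.2% of all genes. Of these, 3 members lay above the untreated samples in 5-AZA, against 36.8% of all genes, and 2 lay below, against 25.4%. With 2 samples against 2, an exact two-sided permutation test of a single value cannot give a p below 0.333.

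**Figure D2:**
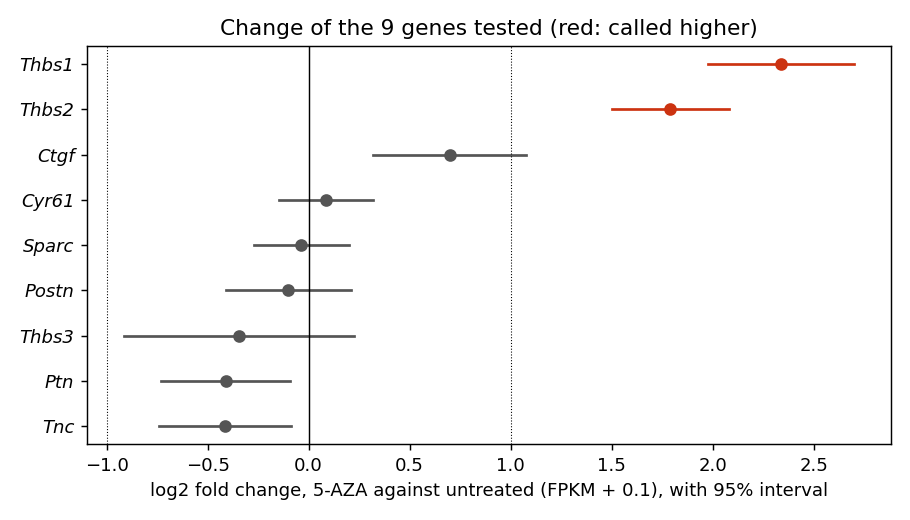
The log2 fold change of the 9 tested genes, 5-AZA against untreated, with points for the estimates, bars for the 95% interval from limma and dotted lines at 2-fold. Thbs1 and Thbs2, in red, lie at 2.34 and 1.79 with intervals wholly above 2-fold, while the intervals of Cyr61, Sparc, Postn and Thbs3 cross 0.

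Thrombospondin 1 and thrombospondin 2 had the largest changes among the 9 members tested. Thbs1 (chromosome 2, 118111876 to 118127133, GRCm38) was at 3.79 and 3.38 FPKM in untreated replicates 1 and 2, and at 16.5 and 20.8 FPKM in 5-AZA replicates 101 and 102. Both 5-AZA samples lay far above both untreated samples, and the group means of 3.58 ± 0.290 and 18.6 ± 3.04 FPKM (SD, n = 2 each) differed 5.20-fold. On the log2 scale the difference was 2.34 with a standard error of 0.16 and a 95% interval of 1.98 to 2.70 (limma, adjusted p = 1.36e-05). Of all genes tested, 6.42% had a larger absolute change. Over 11 alternative settings, the log2 fold change of Thbs1 ranged from 2.09 to 2.51, and the call held in all 11. Both listed transcripts of Thbs1 changed in the same direction. NM_011580.4 was at 2.24 and 1.54 FPKM untreated and at 9.46 and 11.3 FPKM after 5-AZA, and NM_001313914.1 was at 1.55 and 1.83 FPKM untreated and at 7.01 and 9.47 FPKM after 5-AZA. NM_011580.4 made up 59.1% and 45.7% of the gene in the untreated samples and 57.4% and 54.4% in the 5-AZA samples, which overlapped. In the fit over 35557 single transcripts, the adjusted p (limma) was 0.0144 for NM_011580.4 and 0.0185 for NM_001313914.1. Among all transcripts tested, 2.10% were called higher.

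Thbs2 (chromosome 17, 14665500 to 14694262, GRCm38) had 1 listed transcript, NM_011581.3. Its level was 10.6 and 8.68 FPKM in the untreated samples and 33.6 and 33.2 FPKM in the 5-AZA samples. Again both 5-AZA samples lay above both untreated samples, and the difference between the untreated replicates was larger than that between the 5-AZA replicates. The group means were 9.63 ± 1.34 and 33.4 ± 0.224 FPKM (SD, n = 2 each), a 3.47-fold difference. This was a log2 fold change of 1.79 with a standard error of 0.13 and a 95% interval of 1.50 to 2.08 (limma, adjusted p = 1.79e-05). Leaving out 5-AZA replicate 101 or 102 ended the call, with adjusted p-values (limma) of 0.0597 and 0.0651, while the log2 fold change stayed at 1.78 and 1.80. Thbs1 and Thbs2 together were at 14.4 and 12.1 FPKM in the untreated samples and at 50.0 and 54.0 FPKM in the 5-AZA samples. The ratio of Thbs2 to Thbs1 was 2.79 and 2.57 without 5-AZA and 2.04 and 1.60 with it. Thbs2 was thus the more abundant of the pair in every sample, by a smaller margin in both 5-AZA samples. This difference in ratio could not reach an exact permutation p below 0.333.

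The 250 bases before the annotated start of a gene show how many CG positions, the sites of DNA methylation that 5-AZA acts on in dividing cells, lie there. DNA methylation was not measured in these samples. RefSeq windows of GRCm38.p6 matched 8 of the 10 members with 10 windows, and none was matched for Thbs1 or Ctgf. Over 32851 such windows the median number of CG positions was 6. The 3 windows printed here are those of Thbs2, which was called higher, of Cyr61, which stayed near its untreated level, and of Thbs4, which was near 0 throughout. All lie on the minus strand and are written 5′ to 3′ with each CG in capitals.
Thbs2, chr17:14694263-14694512: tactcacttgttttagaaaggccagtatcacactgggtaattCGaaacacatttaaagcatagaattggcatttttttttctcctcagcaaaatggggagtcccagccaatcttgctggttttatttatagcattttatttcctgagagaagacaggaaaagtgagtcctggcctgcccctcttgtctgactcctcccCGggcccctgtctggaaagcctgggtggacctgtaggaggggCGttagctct
Cyr61, chr3:145649986-145650235: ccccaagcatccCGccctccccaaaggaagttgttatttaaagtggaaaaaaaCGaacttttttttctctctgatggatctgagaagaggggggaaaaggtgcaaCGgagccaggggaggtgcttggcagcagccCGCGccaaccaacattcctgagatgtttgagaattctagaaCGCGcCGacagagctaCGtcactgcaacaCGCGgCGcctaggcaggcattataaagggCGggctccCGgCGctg
Thbs4, chr13:92794819-92795068: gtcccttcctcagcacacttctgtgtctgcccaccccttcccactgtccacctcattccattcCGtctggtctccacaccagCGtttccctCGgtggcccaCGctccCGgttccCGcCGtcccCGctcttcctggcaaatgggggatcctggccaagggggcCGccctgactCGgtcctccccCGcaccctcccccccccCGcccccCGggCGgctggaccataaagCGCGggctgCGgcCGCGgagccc
The Thbs2 window held 3 CG positions, and 29.0% of all windows held fewer. Cyr61 had 15, with 72.7% of windows below it, and Thbs4 had 19, with 80.3% below it. Among the windows not printed, Ptn held 5, Sparc 4 and Thbs3 6, Postn held 3 and 4 in its pair of windows, and Tnc held 8 and 10. GGAATG, the core of a TEAD site, searched on both strands, was found at 1 position in the Cyr61 window and at 2 in the Thbs4 window, and 12.6% of all windows held it. CCAAT, searched on both strands, was found at 2 positions in the Thbs2 window and at 1 each in those of Thbs3 and Ptn. Of all windows, 33.8% held it. TATAAA on the strand of the gene was in the Cyr61 window, in both Tnc windows and in the Postn window with 4 CG positions. It was in 7.59% of all windows. The AP-1 motif TGANTCA, which reads the same on both strands, was in none of the member windows and in 6.75% of all windows. These matches describe letters and not occupied sites.

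The pentameric thrombospondins were low. Thbs3 (chromosome 3, 89215180 to 89226841, GRCm38) was at 1.89 and 1.49 FPKM untreated and at 1.13 and 1.50 FPKM after 5-AZA. These values overlapped, and the log2 fold change of -0.34 (95% interval -0.92 to 0.23, limma, adjusted p = 0.373) did not pass the test. Under quantile normalization it was -0.95 (limma, adjusted p = 0.0175), still under 2-fold, and in the other 10 settings the adjusted p was above 0.05. Its main transcript NM_013691.2 was at 1.09, 1.24, 1.03 and 1.49 FPKM in the 4 samples and took 57.6% and 82.9% of the gene untreated and 91.1% and 99.8% after 5-AZA. XM_006501295.1 took 40.4% and 17.1% untreated and 4.07% and 0.196% after 5-AZA. It stayed below 1 FPKM in every sample, and its log2 fold change of -2.18 did not pass the test (limma, adjusted p = 0.244). XM_011240072.2 took at most 4.85% of the gene, in 5-AZA replicate 101, and was too low to test. Thbs4 (chromosome 13, 92751586 to 92794818, GRCm38), a tendon and muscle-connective tissue gene, was at 0.0094 FPKM in untreated replicate 1, was listed at 0 in untreated replicate 2, and reached 0.0550 and 0.0101 FPKM after 5-AZA. It stayed below the minimum of 0.1 FPKM in every sample and was not tested. Of the 6 tendon markers, a list that includes Thbs4, Tnmd and Fmod were called lower (log2 fold changes -4.14 and -1.89) and Kera was called higher (1.52). Scx was at 2.25 and 2.43 FPKM untreated and at 3.07 and 3.95 FPKM after 5-AZA and, like Mkx, was not called.

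Sparc, Tnc and Postn, whose products act on collagen, adhesion and matrix assembly, were not called in either direction. Sparc (chromosome 11, 55394159 to 55420080, GRCm38) was at 672 and 663 FPKM in the untreated samples and at 631 and 673 FPKM in the 5-AZA samples. The groups overlapped, and the 95% interval of the log2 fold change ran from -0.27 to 0.20 (limma, adjusted p = 0.849). The estimate of -0.03 turned to 0.011 under quantile normalization and to 0.012 without 5-AZA replicate 101. Both Sparc transcripts kept their proportions, with NM_009242.5 at 83.0% to 83.3% and NM_001290817.1 at 16.7% to 17.0% of the gene in the 4 samples. Their log2 fold changes were -0.04 and -0.01, and each turned positive without 5-AZA replicate 101.

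Tnc (chromosome 4, 63959785 to 64047015, GRCm38) was at 22.9 and 24.8 FPKM untreated and at 15.6 and 20.4 FPKM after 5-AZA. Both 5-AZA samples lay below both untreated samples, but the log2 fold change of -0.41 (95% interval -0.74 to -0.09) did not pass the adjusted threshold (limma, adjusted p = 0.0696). In 2 of the 11 alternative settings the adjusted p was below 0.05. The main transcript NM_011607.3 was at 16.8 and 18.1 FPKM untreated and at 11.0 and 11.2 FPKM after 5-AZA (log2 fold change -0.65, limma, adjusted p = 0.0877). Its share of the gene was 73.5% and 73.0% untreated and 70.1% and 54.9% after 5-AZA. XM_006537777.1 went the other way, at 0.509 and 0.708 FPKM untreated and 1.64 and 2.81 FPKM after 5-AZA, or 2.23% and 2.85% against 10.5% and 13.7% of the gene. Its log2 fold change of 1.68 was not called (limma, adjusted p = 0.161). The other named Tnc transcripts overlapped between the groups, with log2 fold changes of -0.31 for XM_006537774.1 and -0.57 for XM_006537775.1. Both estimates turned positive, to 0.10 and 0.32, without 5-AZA replicate 101. XM_006537776.1 stayed under 1 FPKM.

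Postn (chromosome 3, 54359267 to 54391041, GRCm38) was the second most abundant member, at 767 and 744 FPKM untreated and at 801 and 620.1 FPKM after 5-AZA. The groups overlapped, since 5-AZA replicate 101 was the highest of the 4 and replicate 102 the lowest. The estimated log2 fold change was -0.10 with a 95% interval of -0.41 to 0.21 (limma, adjusted p = 0.657), and it turned to 0.09 without 5-AZA replicate 102. The 6 transcripts of periostin did not move alike. NM_001198766.1, the most abundant, was at 398 and 369.6 FPKM untreated and at 370.3 and 244 FPKM after 5-AZA (log2 fold change -0.35, limma, adjusted p = 0.468). NM_001313899.1 was at 213, 207, 209.7 and 135 FPKM in the same order (log2 fold change -0.32). For both, replicate 102 was far below the other 3 samples and replicate 101 was not.

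Less abundant Postn transcripts were higher in both 5-AZA samples. XM_006501653.2 was at 11.7 and 10.6 FPKM untreated and at 25.5 and 22.8 FPKM after 5-AZA, and it was called higher at a log2 fold change of 1.11 (limma, adjusted p = 0.0228). Under median centring it was at 0.98, just under 2-fold, and not called. NM_001198765.1 was at 57.3 and 59.9 FPKM untreated and at 92.7 and 101 FPKM after 5-AZA, and at a log2 fold change of 0.73 (limma, adjusted p = 0.0264) it was under 2-fold. NM_001313898.1 was at 21.0 and 24.9 FPKM untreated and at 35.4 and 40.1 FPKM after 5-AZA (log2 fold change 0.72, limma, adjusted p = 0.0741). In each of the 3 the groups did not overlap. NM_015784.3 was at 66.4, 71.1, 67.8 and 77.2 FPKM, and its log2 fold change of 0.07 turned negative under median centring, under quantile normalization and without 5-AZA replicate 102. NM_001198766.1 accordingly took 51.9% and 49.7% of the gene untreated and 46.2% and 39.3% after 5-AZA, and NM_001198765.1 took 7.47% and 8.06% against 11.6% and 16.4%. These transcripts share most of their exons, so the authors' software had to divide the shared reads among them, and the difference in share was not tested.

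**Figure D3:**
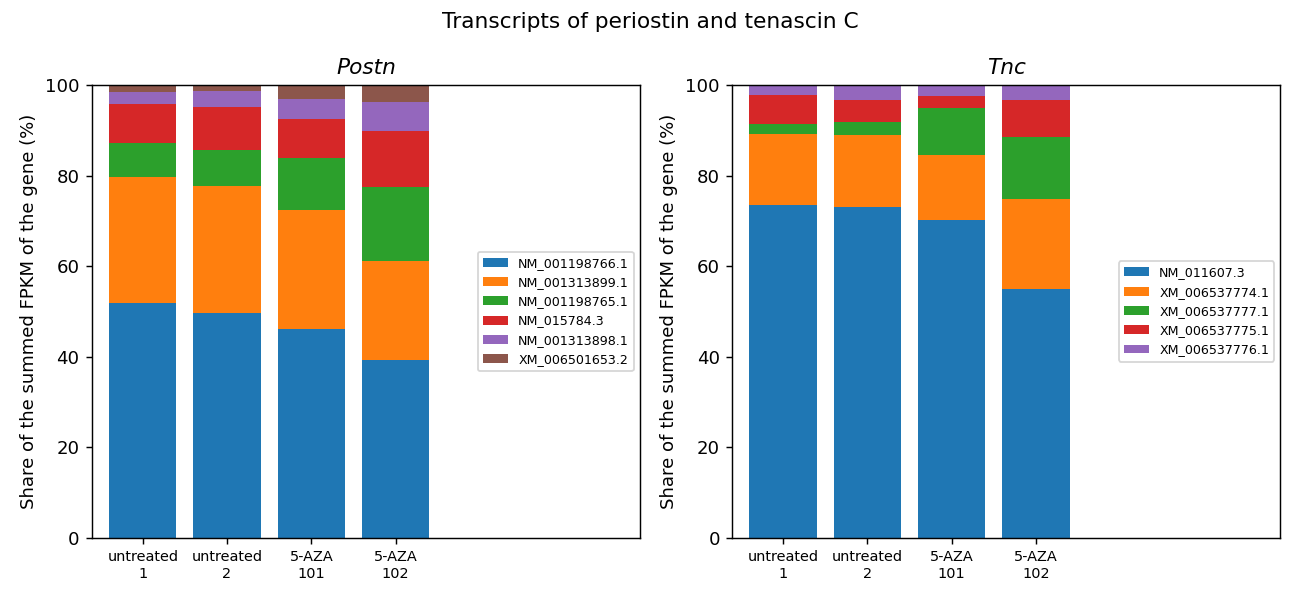
Share of each transcript in the summed FPKM of Postn and Tnc, in percent, as stacked bars for the 4 samples. The share of Postn NM_001198766.1 is 49.7% to 51.9% untreated and 39.3% to 46.2% after 5-AZA, and that of Tnc NM_011607.3 is 73.0% to 73.5% and 54.9% to 70.1%.

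Across the members, 22 transcripts were tested and 4 were called, against 2.36% of all transcripts. All 4 were higher and 0 lower, against 0.262% of all transcripts called lower. The groups did not overlap for 12 of the 22, against 46.5% of all transcripts, with 5-AZA above in 8, against 25.6%, and below in 4, against 20.9%. By limma's unadjusted p below 0.05, 8 member transcripts were higher and 4 lower. The 4 called were both Thbs1 transcripts, the Thbs2 transcript and XM_006501653.2 of Postn. None of the 4 passed when any 1 of the 4 samples was left out, with no limit on low values or with eBayes without trend, and 3 of the 4 passed under median centring. Without 1 sample, the adjusted p (limma) was 0.0838 to 0.165 for the Thbs2 transcript, 0.109 to 0.223 for NM_011580.4, 0.148 to 0.200 for NM_001313914.1 and 0.164 to 0.248 for XM_006501653.2. The estimates kept their direction.

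Ctgf and Cyr61 encode the CCN proteins CCN2 and CCN1, which bind integrins and heparan sulfate and whose genes are used as readouts of YAP and TEAD activity. Ctgf (chromosome 10, 24595442 to 24598683, GRCm38) was at 8.65 and 6.58 FPKM untreated and at 13.3 and 11.4 FPKM after 5-AZA. Both 5-AZA samples lay above both untreated samples, and the means of 7.62 ± 1.46 and 12.3 ± 1.36 FPKM (SD, n = 2 each) differed 1.62-fold. At 0.70 (95% interval 0.32 to 1.08), the log2 fold change passed the adjusted threshold but not the 2-fold limit (limma, adjusted p = 0.0151). The adjusted p was below 0.05 in 6 of 11 alternative settings and ranged from 0.00254 to 0.258, and in the fit over single transcripts it was 0.181. Cyr61 (chromosome 3, 145646971 to 145649985, GRCm38) was at 37.6 and 35.8 FPKM untreated and at 37.1 and 40.8 FPKM after 5-AZA. Its groups overlapped, and the 95% interval of -0.15 to 0.32 around a log2 fold change of 0.09 lay well within 2-fold (limma, adjusted p = 0.604). The estimate turned to -0.021 under median centring. Cyr61 was above Ctgf in every sample.

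Ptn (chromosome 6, 36714924 to 36810179, GRCm38), the gene of pleiotrophin, was the most abundant member and ranked 4 by mean level among all 13199 genes tested. It was at 3018 and 3375 FPKM untreated and at 2204 and 2618 FPKM after 5-AZA, or 0.877% and 1.01% against 0.671% and 0.724% of the summed mRNA FPKM. Both 5-AZA samples lay below both untreated samples. The log2 fold change of -0.41 (95% interval -0.73 to -0.09) did not pass the adjusted threshold (limma, adjusted p = 0.0663). It ranged from -0.53 to -0.08 over the 11 alternative settings, and the adjusted p was below 0.05 in 2 of them. The transcript XM_006505757.3 was at 2524 and 2807 FPKM untreated and at 1825 and 2186 FPKM after 5-AZA, and NM_008973.2 was at 494 and 568 FPKM untreated and at 379 and 433 FPKM after 5-AZA. Their proportions were kept, with XM_006505757.3 at 82.8% to 83.6% of the gene in the 4 samples. Neither transcript was called, with log2 fold changes of -0.41 and -0.39 (limma, adjusted p = 0.147 and 0.165).

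Circular RNAs, which form when an exon end is joined back to an upstream exon start, gave a readout of the members that the choice of genes had not used. The table held 3 circRNAs of members, 2 of Ptn and 1 of Sparc, and 2 of them were detected in at least 2 samples and tested. The fewest reads listed for any circRNA was 2, so a value listed at 0 does not mean that no read was seen. circRNA_3379 of Ptn (mmu_circ_0013317, chromosome 6, 36741278 to 36744505, minus strand, 453 spliced bases) had 28 and 31 junction reads in the untreated samples and 7 and 4 in the 5-AZA samples. This corresponded to 0.301 and 0.332 RPM (junction reads scaled to the reads of the sample) untreated and to 0.0753 and 0.0426 RPM after 5-AZA, with both 5-AZA samples far below. The log2 fold change of -2.10 (standard error 0.30, unadjusted p = 0.00503 from limma) was not called after adjustment over 1360 circRNAs (limma, adjusted p = 0.119). No circRNA in the table was called, 0.00% of those tested, although limma gave 91 circRNAs an unadjusted p below 0.05 in the higher direction and 160 in the lower. The paper reports circRNAs that differed in both directions, using a different test (DESeq, negative binomial) that was not run here. Both 5-AZA samples lay below both untreated samples for 24.9% of all circRNAs tested. Per 1000 FPKM of linear Ptn, circRNA_3379 was at 0.0998 and 0.0983 RPM untreated and at 0.0342 and 0.0163 RPM after 5-AZA, so it was lower relative to the mRNA as well. The total of circRNA junction reads was also lower, at 13282 and 13388 untreated and 10905 and 10448 after 5-AZA.

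circRNA_3378, an exonic circle of 331 bases near the 3′ end of Ptn (chromosome 6, 36715427 to 36715757), had 3 reads in untreated replicate 1, was listed at 0 in the other 3 samples and was not tested. circRNA_0596 is listed under Sparc (chromosome 11, 55405180 to 55450625, minus strand), but it extends 30545 bases upstream of the annotated start of that gene. It was listed at 0 in both untreated samples and had 3 and 5 reads in the 5-AZA samples, which was not called (limma, adjusted p = 0.137). The groups did not overlap, as for 14.0% of all circRNAs with 5-AZA above. Its assignment to Sparc is therefore uncertain.

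Long noncoding RNAs listed inside or within 5 kb of a member gave a further readout of the same loci. Their coordinates were read as GRCm38, although the submitters' notes name mm9. For the host genes of the circRNAs, 85.9% of 2388 transcripts lay inside the GRCm38 span of their gene. The lncRNA coordinates themselves were not checked in this way. There were 36 such lncRNAs, of which 13 were tested. Thbs2 had none, and the 4 at Thbs1 were too low to test. No lncRNA at a member locus was called in either direction (limma), against 0.984% called higher and 0.154% called lower among 24075 lncRNAs tested. At an unadjusted p below 0.05, 7 were lower and 0 higher. Both 5-AZA samples lay below both untreated samples for 11 of the 13, against 31.7% of all lncRNAs, and the other 2 overlapped. Over all lncRNAs, 46.3% did not overlap in one direction or the other. The median log2 fold change was -0.82 over these 13 and -0.23 over all lncRNAs tested. All 9 that lay within the span of a member, of which 4 were in Tnc, 3 in Ptn, 1 in Sparc and 1 in Postn, had lower values in both 5-AZA samples. They are single-exon RNAs on the strand of the gene, so reads from them and from the messenger or its precursor cannot be told apart. The 9 are for that reason not independent of the mRNA values or of each other.

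At Ptn, NONMMUT056388.2 (chromosome 6, 36714929 to 36715534), at the 3′ end of the gene, was at 2626 and 3736 FPKM untreated and at 2041 and 1548 FPKM after 5-AZA (log2 fold change -0.82, limma, adjusted p = 0.349). NONMMUT056389.2 (chromosome 6, 36717762 to 36720241) was at 36.2 and 38.8 FPKM untreated and at 16.7 and 14.8 FPKM after 5-AZA (log2 fold change -1.25, limma, adjusted p = 0.0926). NONMMUT056391.2 (chromosome 6, 36751821 to 36756856) was at 29.5 and 32.4 FPKM untreated and at 16.2 and 13.3 FPKM after 5-AZA (log2 fold change -1.07, limma, adjusted p = 0.162). In each the 5-AZA samples lay below the untreated ones. As a percentage of the untreated mean, the 5-AZA replicates 101 and 102 stood at 69.0% and 81.9% for Ptn mRNA, at 64.2% and 48.7% for NONMMUT056388.2, at 44.6% and 39.4% for NONMMUT056389.2, at 52.4% and 43.0% for NONMMUT056391.2 and at 23.8% and 13.5% for circRNA_3379. NONMMUT056388.2 also had the widest spread between the untreated samples, at 82.5% and 117%. The mRNA thus had the smallest difference of the readouts at Ptn in 5-AZA replicate 101 and in 5-AZA replicate 102, and whether these differences differ from each other was not tested.

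**Figure D4:**
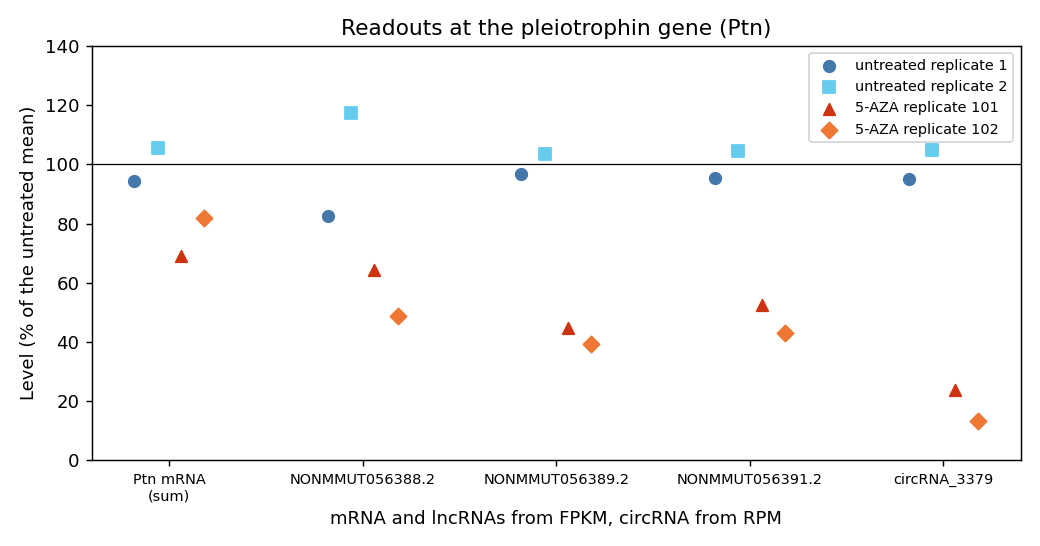
Level of Ptn mRNA, of 3 lncRNAs inside the gene and of circRNA_3379 in each sample, in percent of the untreated mean, with the line at the untreated mean. In the 5-AZA samples the mRNA is at 69.0% and 81.9%, whereas circRNA_3379 is at 23.8% and 13.5%.

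At Tnc, NONMMUT047639.2 (chromosome 4, 64003006 to 64005434) was at 1.07 and 1.00 FPKM untreated and at 0.351 and 0.260 FPKM after 5-AZA (log2 fold change -1.50, limma, adjusted p = 0.200). Of the 4 inside Tnc, 3 are classed as antisense in the file although listed on the strand of Tnc. At Postn, NONMMUT043086.2 (chromosome 3, 54378484 to 54382319) was at 40.9 and 39.9 FPKM untreated and at 39.5 and 27.4 FPKM after 5-AZA, with replicate 102 the lower, as for the main Postn transcripts.

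The genes whose pattern over the 4 samples was most like that of Ptn, by the distance between centred log2 values among 10791 genes, were Nr2c2ap at 0.0162, Vps53 at 0.0270 and Hdac6 at 0.0310. For Thbs1 they were Scrn1 at 0.0581, H2-K1 at 0.0883 and Otor at 0.110. Scrn1 was at 1.31 and 1.14 FPKM untreated and at 5.80 and 7.71 FPKM after 5-AZA, and H2-K1 was at 16.2 and 15.7 FPKM against 71.8 and 88.0 FPKM. With 4 samples such a likeness rests on few points.

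Other genes around the members were read from the same fit in 7 lists with 111 genes. For comparison with each list, 13.1% of all 13199 genes tested were called higher and 1.32% lower. The median log2 fold change of all genes tested was 0.05. Among 20 other matricellular genes, 16 were tested, 9 were called higher and 0 lower, and the median log2 fold change was 1.29. All 13 with an unadjusted p below 0.05 (limma) were higher. Tgfbi, the gene of a periostin relative, was at 0.564 and 0.889 FPKM untreated and at 17.7 and 21.2 FPKM after 5-AZA (log2 fold change 4.59). Spp1, the gene of osteopontin, was at 133 and 123 FPKM untreated and at 437 and 377 FPKM after 5-AZA (log2 fold change 1.67). Both were well above the untreated samples in each 5-AZA sample, whereas Postn itself overlapped. Comp, the gene of the fifth thrombospondin, also stands in the chondrocyte list. It was at 1.17 and 1.12 FPKM untreated and at 3.02 and 4.41 FPKM after 5-AZA (log2 fold change 1.59), while the chondrocyte markers Sox9, Col2a1, Col9a1 and Matn1 were called lower.

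Among the CCN relatives, Wisp2 was called higher, from 23.0 and 21.1 FPKM to 56.8 and 49.3 FPKM (log2 fold change 1.26). Nov, at a log2 fold change of 0.70 (limma, adjusted p = 0.00338), and Wisp1, at 0.53 (limma, adjusted p = 0.0412), were under 2-fold, and Wisp3 was listed at 0 in both untreated samples and was not called. Smoc1, a SPARC relative, was called higher at a log2 fold change of 2.01, as were Sparcl1 at 1.03, Tnxb at 1.55 and Fbln1 at 1.31. Mdk, the gene of midkine and the only other member of the pleiotrophin family, was listed at 0 in both untreated samples and was at 0.466 and 1.78 FPKM after 5-AZA, where it was called higher. Mdk thus stayed far below Ptn in every sample. Several calls in this list depended on the setting. With no limit on low values Comp, Smoc1, Mdk and Tnxb were not called (limma, adjusted p = 0.0617, 0.0908, 0.0993 and 0.140). Comp and Smoc1 were also not called without 5-AZA replicate 101 (log2 fold changes 1.85 and 2.47) or 102 (1.32 and 1.55). Tgfbi was not called without 5-AZA replicate 102 (log2 fold change 4.45). Fbln1 and Tnxb were both low genes. Under quantile normalization their log2 fold changes were 0.013 and 0.49 (limma, adjusted p = 0.976 and 0.281), and with a pseudocount of 1 FPKM they were 0.37 and 0.64, under 2-fold. The list had 6 calls without untreated replicate 2. Without 5-AZA replicate 101 the list had 6 calls, and without 5-AZA replicate 102 it had 3.

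Of 20 receptors and binding partners, 17 were tested, with 4 called higher and 1 lower and a median log2 fold change of 0.17. An unadjusted p below 0.05 (limma) was reached by 7 in the higher direction and by 3 in the lower. Cd36, a receptor of thrombospondin 1 and 2 that also stands in the adipocyte list, was at 0.0207 and 0.0208 FPKM untreated and at 7.05 and 8.68 FPKM after 5-AZA (log2 fold change 6.04). Cd47, the other thrombospondin receptor, was at 12.3 and 11.2 FPKM untreated and at 18.0 and 16.4 FPKM after 5-AZA, and its log2 fold change of 0.55 was under 2-fold (limma, adjusted p = 0.0113). Of the 2 receptors, Cd47 was thus the more abundant in every sample. The integrin subunit genes Itga8, Itga9 and Itga3 were called higher at log2 fold changes of 2.00, 1.68 and 1.18, from at most 0.471 FPKM in the untreated samples. With a pseudocount of 1 FPKM these were 0.94, 0.76 and 0.57, all under 2-fold, and under quantile normalization Itga9 was at 0.70 and Itga3 at 0.24 (limma, adjusted p = 0.0624 and 0.480). Itgb3, the partner of the alpha-v subunit in a periostin, osteopontin and CCN receptor, was called lower, from 9.48 and 8.60 FPKM to 3.30 and 4.09 FPKM (log2 fold change -1.27). Itga6 at -0.89 and Itgav at -0.60 were also below the untreated samples but under 2-fold. Ptprz1 and Alk, which encode pleiotrophin receptors, stayed below 0.1 FPKM in every sample. Other binding partners in the list were at higher levels. The syndecan gene Sdc3 was at 13.7 and 14.5 FPKM untreated and at 15.9 and 18.6 FPKM after 5-AZA. Ncl was at 28.6 and 22.6 FPKM untreated and at 20.5 and 22.7 FPKM after 5-AZA, and neither Sdc3 nor Ncl was called. Without 5-AZA replicate 101 or without 102, 1 gene of the receptor list was called higher, and Itgb3 was called in neither (limma, adjusted p = 0.0672 and 0.0587).

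**Figure D5:**
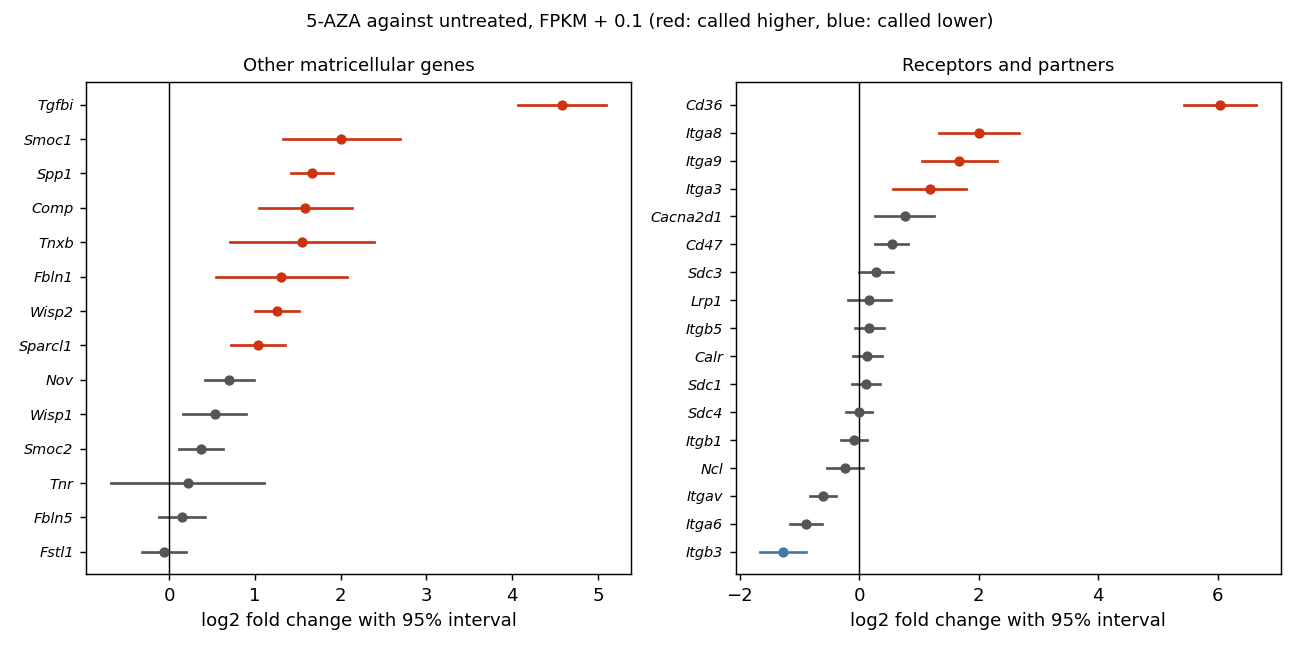
The log2 fold change, 5-AZA against untreated, of other matricellular genes and of receptors and partners that were above 0 in an untreated sample, with points for the estimates and bars for the 95% interval from limma. Tgfbi at 4.59 and Cd36 at 6.04 lie farthest from 0, and Itgb3 at -1.27 is the receptor called lower.

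The 12 matrix proteins and enzymes that the members bind or are processed by had no call in either direction and a median log2 fold change of -0.01. By limma's unadjusted p below 0.05, 5 of them were higher and 5 lower. Col3a1 was at 676 and 686 FPKM untreated and at 1153 and 1191 FPKM after 5-AZA (log2 fold change 0.78). Fn1 had a log2 fold change of -0.65 and Col1a2 one of -0.37, with both 5-AZA samples below both untreated samples.

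Of 20 YAP and TEAD target genes other than Ctgf and Cyr61, 19 were tested, with 3 called higher and 1 lower and a median log2 fold change of 0.02. Among all genes tested, 13.1% were called higher and 1.32% lower. The unadjusted p (limma) was below 0.05 for 6 targets in the higher direction and for 5 in the lower. Ankrd1, which is also a muscle gene, was at 0.157 and 0.125 FPKM untreated and at 28.0 and 38.0 FPKM after 5-AZA (log2 fold change 7.09). Igfbp3 and Gadd45a were called higher at log2 fold changes of 3.53 and 2.16, and Tgfb2 was called lower at -1.20. Without 5-AZA replicate 101 or without 102, 1 gene was called higher and 0 lower. The 13 tested YAP, TEAD and SRF factors had no call. By limma's unadjusted p below 0.05, 1 was higher and 0 lower. Wwtr1 had a log2 fold change of 0.32, Vgll4 one of 0.27 and Yap1 one of 0.07, which turned negative under median centring, under quantile normalization and without untreated replicate 2.

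Thrombospondin 1 is known to activate latent TGF-beta. The 12 genes of TGF-beta signalling were all tested, with 1 called higher, 1 lower and a median log2 fold change of 0.58. Unadjusted p-values below 0.05 (limma) were found for 7 genes in the higher direction and 1 in the lower. The one called higher was Tgfbr3, at 6.02 and 5.43 FPKM untreated and 11.8 and 12.3 FPKM after 5-AZA (log2 fold change 1.06), and the one called lower was the ligand gene Tgfb2, at 15.8 and 12.0 FPKM untreated and 5.76 and 6.12 FPKM after 5-AZA. Tgfbr2 had a log2 fold change of 0.71 and was under 2-fold. Neither call held without 5-AZA replicate 101 or without 102, where the log2 fold changes were 1.09 and 1.03 for Tgfbr3 and -1.16 and -1.25 for Tgfb2. Tgfbr3 was also under 2-fold with a pseudocount of 1 FPKM (0.96), median centring (0.96) and quantile normalization (0.97). Without untreated replicate 2 it was at 0.99. With no limit on low values Tgfb2 was not called (limma, adjusted p = 0.0556). Of 15 immediate-early serum response genes, all tested, Atf3 was called higher at a log2 fold change of 1.81 and 0 were lower, with a median of -0.01. At an unadjusted p below 0.05, 2 were higher and 1 lower (limma). Klf6 had a log2 fold change of -0.15 and Ier2 one of 0.09, which turned negative under median centring and without untreated replicate 2. The call of Atf3 was lost without 5-AZA replicate 101 (limma, adjusted p = 0.101) and without 102 (limma, adjusted p = 0.147).

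The remaining marker lists also moved in part. Of 10 mesenchymal markers, Thy1 was called higher, at 10.4 and 14.2 FPKM after 5-AZA. Vim was at 1178 and 1380.3 FPKM after 5-AZA and was not called. Its log2 fold change of -0.87 passed the adjusted threshold but not the 2-fold limit (limma, adjusted p = 0.00119). The summed level was 118 and 105 FPKM untreated and 20.2 and 31.2 FPKM after 5-AZA for 6 chondrocyte markers, with 4 called lower and Comp called higher. For the 6 tendon markers it was 141 and 148 FPKM against 15.0 and 16.6 FPKM, with 2 called lower and 1 higher, and most of the untreated sum was Tnmd, at 127 and 130.1 FPKM. For 6 osteoblast markers, with Ibsp listed at 0, it was 8.52 to 8.54 FPKM against 10.5 to 10.8 FPKM, with 2 called higher, Bglap and Dmp1. Most of the untreated osteoblast sum was Runx2, at 8.06 and 8.28 FPKM, which went the other way, to 5.19 and 5.32 FPKM after 5-AZA. Its log2 fold change of -0.63 was under 2-fold (limma, adjusted p = 0.0111). Of 6 smooth muscle markers 2 were called higher, Cnn1 and Tagln, and the sum went from 196 and 200.3 FPKM to 218 and 301 FPKM. Most of that sum was Acta2, at 185 and 191 FPKM untreated and 196 and 273 FPKM after 5-AZA. Acta2 was not called (limma, adjusted p = 0.193). Endothelial markers, with Kdr listed at 0, summed to 0.501 to 0.758 FPKM untreated and 3.57 to 4.12 FPKM after 5-AZA, with 3 called higher. Macrophage and blood cell markers, with Adgre1 and Tyrobp listed at 0, summed to 2.13 and 3.20 FPKM untreated and 3.20 and 5.19 FPKM after 5-AZA, with 1 called higher. The part of these cell types in the values of the matricellular genes was not tested.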

How the data were processed

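Total RNA of 2 untreated and 2 5-AZA samples was depleted of ribosomal RNA and sequenced as stranded libraries. The submitters' processing notes name Trimmomatic, HISAT2, Bowtie2 2.2.9, eXpress 1.5.1 and mm9, without their roles. The authors deposited FPKM values per transcript for mRNAs and lncRNAs and RPM values for circRNAs. eXpress divides reads that fit several transcripts by an estimate, so levels of similar transcripts are uncertain. Every column of sample values was used.

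FPKM were summed per gene. limma 3.58.1 (lmFit, eBayes with trend, R 4.3.3) was fitted to log2(FPKM + 0.1) over all genes with a mean of at least 0.1 FPKM, and likewise over all transcripts and lncRNAs. A fold change on this scale understates the change of low genes. circRNAs detected in at least 2 samples were fitted on log2(RPM + 0.0213). Tables were read with the data.table package, version 1.17.8. P-values were adjusted over all features of a kind by Benjamini and Hochberg's method, and a feature was called at an adjusted p below 0.05 and more than 2-fold. The script was tested on simulated data. Read depth per gene is unknown from FPKM, and the number of samples limits the precision. The steps of the RPM values gave whole reads.

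The members and lists were chosen with earlier results of these data known. All member genes and all member transcripts with a mean of at least 1 FPKM are named. From each list of other genes around the members, the genes called are named, at most 8 by size. Where fewer than 3 were called, those with the highest mean until 3 are named. In the cell type marker lists, not all genes called are named. Beyond this rule, the genes named for their function were chosen after their values were seen. For Ptn (highest mean) and Thbs1 (largest change) the 3 nearest patterns are named.

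Alternatives were pseudocounts of 0.01 and 1 FPKM, no limit or a mean of at least 1 FPKM, median centring, quantile normalization, eBayes without trend and leaving out each sample. Leaving out samples for lncRNAs and circRNAs was added after seeing the data.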

Additional observations from a re-analysis of the deposited data

How the results depend on the processing

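Thbs1 was called under all 11 alternatives and Thbs2 under 9 of 11. The number of members called higher was 1 to 2 when 1 sample was left out, with 1 without 5-AZA replicate 101 and 1 without 102, and 2 under the other alternatives. The 4 member transcripts called fell to 0 with no limit on low values, to 0 with eBayes without trend, to 3 under median centring, and to a range of 0 to 0 when 1 sample was left out. Over the other gene lists, 18 genes called higher became 11 with a pseudocount of 1 FPKM, 11 with a mean of at least 1 FPKM and 5 to 19 without 1 sample (8 without 5-AZA replicate 101, 5 without 102). The 2 called lower became 1 with no limit, 5 under quantile normalization and 0 to 2 without 1 sample. The lncRNAs called lower went from 0 to 1 under quantile normalization (NONMMUT056389.2, log2 fold change -1.53, limma, adjusted p = 0.0410). The causes were not tested.

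Estimates that changed sign were all uncalled. Under median centring they were Cyr61 at -0.021, NM_010516.2 at -0.047, NM_013691.2 at -0.041, NM_015784.3 at -0.058, Yap1 at -0.039 and Ier2 at -0.021. Under quantile normalization they were Sparc at 0.011, NM_010516.2 at -0.0034, NM_013691.2 at -0.044, NM_015784.3 at -0.0043 and Yap1 at -0.0072. The other sign changes came when 1 sample was left out. There the estimates ranged from -0.081 to 0.012 for Sparc, -0.28 to 0.086 for Postn, -0.061 to 0.037 for NM_001290817.1, -0.085 to 0.0065 for NM_009242.5, -0.16 to 0.34 for NM_013691.2, -0.019 to 0.17 for NM_015784.3, -0.72 to 0.10 for XM_006537774.1, -1.46 to 0.32 for XM_006537775.1, -0.030 to 0.17 for Yap1, -0.043 to 0.21 for Ier2 and -0.39 to 0.52 for NONMMUT147574.1.

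The median log2 fold change of all genes was 0.05, and it moved to -0.06 under median centring and to -0.12 under quantile normalization. There the split of all genes called was 1602 higher and 252 lower, and 1041 higher and 886 lower, against 1724 and 174. The number of genes called higher was 1179 with no limit on low values, 845 with a mean of at least 1 FPKM, 875 with a pseudocount of 1 FPKM, 977 without 5-AZA replicate 101 and 785 without 102.

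No paired analysis was possible because the untreated and 5-AZA samples share no replicate numbers. A planned count test on the circRNA reads was not run. Where 1 sample was left out, the lone sample of its group was assumed to vary like the other group.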
